A study of Coprinopsis cinerea with 29 samples.

Results

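The 82 gene models described here are those of the mushroom Coprinopsis cinerea whose transcript level was lowest in the mature cap with its lamellae and at least 1.5 lower there, on the scale log2(RPKM + 1), than in each of the other 8 groups of the study. They were chosen from 12003 gene models in the deposited expression matrix, of which they are 0.683%. RPKM is a read count scaled by gene model length and library depth, and the value compared was the median over the libraries of a group. Because the levels in the mature cap chose these gene models, those levels are given below as a description with no test, and tests are confined to comparisons among the other groups. The levels of the other groups entered the rule too, as each had to lie at least 1.5 above the mature cap. Tests among them are thus not fully independent of the choice.

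Polyadenylated RNA was sequenced in 29 libraries, with 3 or 4 biological replicates for each stage or tissue. All came from strain 326 (A43mut B43mut pab 1-1), a homokaryon that forms fruiting bodies on its own because its A and B mating-type loci are mutated, and whose pab allele makes it require para-aminobenzoic acid. Colonies were grown at 37 °C in darkness for 5 days and then kept at 25 °C with 12 h of light and 12 h of dark. The groups, all of this strain and not otherwise treated as far as the labels say, were vegetative mycelium (VM, n = 3), secondary hyphal knots (H, n = 3), primordia of stage 1 (P1, n = 4) and stage 2 (P2, n = 4), cap (YFB_C), lamellae (YFB_L) and stipe (YFB_S) of the young fruiting body, and stipe (FB_S) and cap together with lamellae (FB_CL) of the fruiting body (n = 3 each). The fruiting body without "young" in its label is called mature here. Its cap and lamellae were not separated, so which of them holds a transcript is not known. The labels call the replicates biological and do not say which cultures they came from, so p-values measure the spread between these samples.

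In this fungus the cap carries the lamellae, or gills, on whose surface the basidia form, pass through meiosis and bear the spores. The stipe lifts the cap by elongating. After the spores ripen, the cap of an ink cap mushroom digests itself and drips away, whereas the stipe stays upright for longer. The deposited files pair the gene models with no name or product, and none of their identifiers matched a reference gene table of another strain, so members are named by number and what they encode is not stated.

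Read totals ran from 10736371 to 32199674 per library. YFB_C replicate 3, YFB_L replicate 1 and H replicate 3 stood apart from their groups in TMM factor (trimmed mean of M values, the scaling used). YFB_C replicate 3 had 0.564 against 0.887 and 0.809, and YFB_L replicate 1 had 0.872 against 1.32 and 1.36. H replicate 3 had 0.999 against 1.32 and 1.52. Correlations were taken over all gene models, which are not independent replicates. In the most unlike pair of libraries of a group the correlation was 0.841 in YFB_L, 0.910 in H and 0.920 in YFB_C, against 0.946 to 0.980 in the other groups. The 3 FB_CL libraries were alike, at 0.974 or more. The mean TMM factor was 0.459 ± 0.0387 in FB_CL and 0.626 ± 0.0229 in FB_S (SD, n = 3 each) against 1.41 ± 0.0644 in VM (SD, n = 3). Small factors raise the scaled levels of a library, and the 10 most abundant gene models took 18.3% ± 0.133 of the reads in FB_CL (SD, n = 3).

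The members stood well above the typical gene model in every group but the mature cap. Their median level was 38.7 RPKM in VM, 37.3 in H, 42.4 in P1, 37.5 in P2, 34.7 in YFB_C, 34.5 in YFB_L and 41.7 in YFB_S. It was 21.4 RPKM in FB_S and 4.13 in FB_CL. Over all 12003 gene models the median stayed between 12.5 and 16.3 RPKM in the 9 groups, with 13.9 in FB_CL. A member had to clear 1.5 in each other group on the log2(RPKM + 1) scale, so the rule itself keeps weakly expressed gene models out. From group to group the members' median thus kept nearly 1 level through mycelium, knots, primordia and the 3 young tissues, was lower in the mature stipe and lowest in the mature cap.

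**Figure D1:**
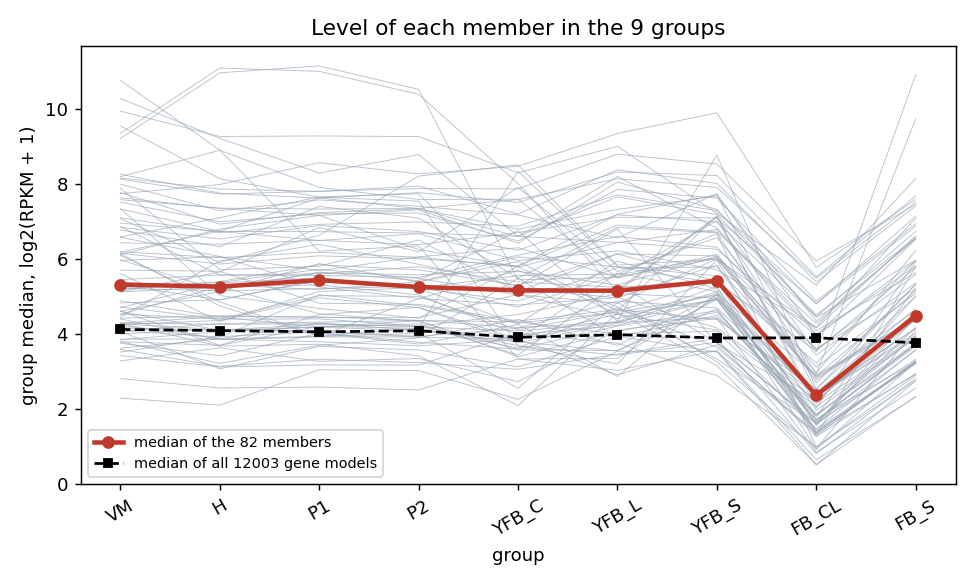
Group medians of log2(RPKM + 1) for each of the 82 members (grey lines, which only join the values of a gene model), with the median over the members (red) and over all 12003 gene models (black, dashed). The grey lines spread over many levels in 8 groups and all dip in FB_CL, which is what the rule chose, while the members' median of 4.49 in FB_S lies between 2.36 in FB_CL and the 5.15 to 5.43 of the other groups.

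The share of all reads that fell in the members, taken without a scaling factor, was lowest in the mature cap. It was 1.93% ± 0.572 in VM, 1.36% ± 0.135 in H, 0.505% ± 0.209 in YFB_C, 0.884% ± 0.354 in YFB_L and 0.951% ± 0.195 in YFB_S (SD, n = 3 each), and 1.44% ± 0.208 in P1 and 1.38% ± 0.221 in P2 (SD, n = 4 each). In the mature parts it was 0.428% ± 0.0505 in the stipe and 0.0418% ± 0.00705 in the cap with lamellae (SD, n = 3 each). The 3 FB_CL libraries, at 0.0491%, 0.0411% and 0.0351%, lay below all others, the lowest of which was YFB_C replicate 3 at 0.270%. The rule chose members low in FB_CL, so their low share there is a description and no separate support. With library size alone the median shift of all gene models in FB_CL against the other groups was itself -1.04 on the log2(RPKM + 1) scale. In bulk tissue, fewer cells of a type and less RNA per cell cannot be told apart.

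**Figure D2:**
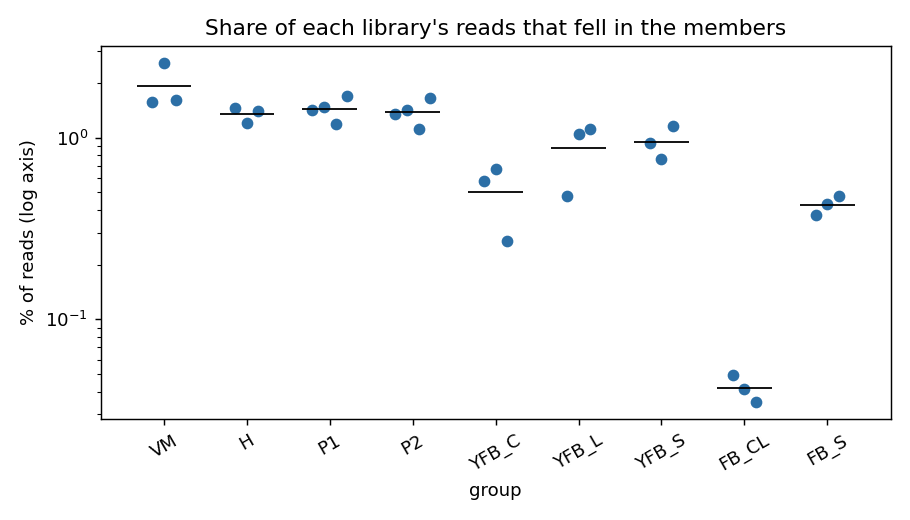
Percent of each library's reads that fell in the 82 members (log axis), with 1 point per library and a line at the group mean. The FB_CL points, between 0.0351% and 0.0491%, lie below all other libraries, and the FB_S points, between 0.376% and 0.477%, are next lowest together with YFB_C replicate 3 and YFB_L replicate 1.

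Reduced, and not silent, describes the members in the mature cap. The 9 members with a median under 1 RPKM in FB_CL are 11% of the 82, another 49 stood between 1 and 10 RPKM, and 24 were at 10 RPKM or more. No member had 0 reads in any of the 3 FB_CL libraries. Reads were few for some, from 1 to 939 per member and library, with 13 members under 10 reads in at least 1 FB_CL library, so their low levels are coarse. The median member had 134 reads over the 3 libraries. The lowest of the other 8 group medians was 2.87 to 10.2 times the FB_CL median in RPKM, with a median of 4.27 over the members. On the log2(RPKM + 1) scale this gap ran from 1.51 to 2.85 with a median of 1.81.

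For 76 of the 82 members all 3 FB_CL libraries lay below every one of the other 26. Over all gene models 6.89% did, and since the rule rests on these values nothing is read from the difference. In the 6 exceptions the overlap came from YFB_L replicate 3, YFB_C replicate 3, YFB_S replicate 2 or YFB_L replicate 1. Gene model 496868 overlapped with a pair of them, with 9.65 RPKM in FB_CL replicate 1 against 1.82 in YFB_S replicate 2 and 2.23 in YFB_L replicate 3. At the edge of the rule, gene models 466112 and 51973 were just inside with gaps of 1.508 for both, and 403862 and 356654 just outside with 1.496 and 1.492. There was no break in values at the threshold, and 282 gene models would pass at a gap of 1 and 16 at a gap of 2.

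The same rule, turned to the other groups, found 127 gene models lowest in FB_S alone, 111 in VM, 104 in YFB_L, 32 in YFB_S and 9 in YFB_C, and 0 in H, P1 and P2. The mature cap was thus not the group with the most gene models of this kind. The scaling weighs on this order. With library size alone the rule would find 368 in FB_CL, 81 of them among the 82 members, against 163 in FB_S and 67 in YFB_L. That scaling moved the median of all gene models, as FB_CL minus the mean of the other groups, from -0.09 to -1.04 on the log2(RPKM + 1) scale. Relative to that median the members lay 2.52 lower as deposited (-2.60 against -0.09) and 2.51 lower with library size alone (-3.55 against -1.04). The rule chose members on this difference, and a change of scaling shifts members and all gene models nearly alike. The values are thus a description and no test of the members.

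The largest gaps belonged to gene models 365827, 541972 and 449998. Gene model 365827 had 4.08, 3.42 and 3.23 RPKM in FB_CL replicates 1 to 3. It had 32.8, 46.4 and 14.7 RPKM in YFB_C, 18.2, 48.3 and 35.1 in YFB_L, 139, 81.9 and 184 in YFB_S and 18.4, 43.3 and 30.97 in FB_S. In the earlier groups it had 95.99, 83.8 and 94.7 RPKM in VM, 136, 39.6 and 155 in H replicates 2 to 4, 156, 256, 256 and 143 in P1 and 349, 211, 199 and 212 in P2. It was highest in stage 2 primordia, and the FB_CL libraries did not overlap with any other. Its mean was 31.3 ± 15.9 RPKM in the young cap and 33.8 ± 15.1 in lamellae (SD, n = 3 each) against 243 ± 70.8 in P2 (SD, n = 4), log2 changes of -2.96 and -2.84 (edgeR adjusted p = 1.54e-05 and 2.58e-05).

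Gene model 541972 had the largest ratio, 10.2 between its lowest other group, YFB_C, and FB_CL. Its levels were 1.44, 1.56 and 1.20 RPKM in FB_CL, 14.7, 18.8 and 12.1 in YFB_C, 36.4, 15.6 and 17.7 in YFB_L and 29.5, 28.98 and 29.6 in YFB_S. They were 36.9, 26.4 and 33.6 in VM, 37.3, 48.4 and 35.7 in H, 42.02, 42.6, 35.2 and 34.2 in P1 and 38.5, 30.03, 33.7 and 24.6 in P2. In the mature stipe it had 54.7, 62.6 and 53.8 RPKM, above all other libraries. The mature parts held the extremes of this gene model, highest in the stipe and lowest in the cap with lamellae.

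Gene model 449998 had 5.45, 7.75 and 5.31 RPKM in FB_CL, 40.4, 33.9 and 38.7 in FB_S and 45.7, 43.7 and 35.1 in YFB_C. It was higher in VM (108, 116 and 90.1), H (79.1, 69.7 and 106), P1 (172, 175, 162 and 120.1), P2 (170.3, 141, 129 and 107), YFB_L (113, 125 and 104) and YFB_S (105, 73.3 and 102). Its young cap and mature stipe were close to each other, and both were well above the mature cap.

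The most abundant members outside the mature cap were 501305, 376531 and 211589, with medians of 995, 719.9 and 559 RPKM over the other 8 groups. Gene model 211589 had 51.1, 38.3 and 34.9 RPKM in FB_CL, 331, 279.5 and 280.3 in FB_S, 312, 361 and 72.3 in YFB_C, 193, 509 and 667 in YFB_L and 147, 89.6 and 219 in YFB_S. In the earlier groups it lay between 403 and 988 RPKM. Even in the mature cap it stood above the median gene model, and its lowest library elsewhere was YFB_C replicate 3.

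Gene models 501305 and 376531 moved together, with a correlation of 0.940 over the 29 libraries, given as a description since the libraries share groups and depth. Replicates differed widely in both. In H, P1 and P2 gene model 501305 ran from 686 to 3332 RPKM and 376531 from 805 to 3016. In VM gene model 501305 had 648, 28.5 and 877 RPKM and 376531 had 589, 25.1 and 922. In YFB_S they had 60.4, 138 and 1527 and 67.7, 129 and 1614 RPKM, and in YFB_L 455, 33.9 and 4.26 and 44.3, 44.5 and 5.12. VM replicate 2 and YFB_L replicate 3 were low and YFB_S replicate 3 high in both gene models. In the mature cap they were even, at 9.80, 11.7 and 10.4 and 6.64, 7.95 and 5.53 RPKM, and YFB_L replicate 3 lay below the FB_CL libraries in both. In the mature stipe they stood at 937, 2045 and 1919 and 434, 851 and 965 RPKM.

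The flattest members over the other 8 groups were 455305 and 51973. Gene model 455305 had 4.16, 4.71 and 4.07 RPKM in FB_CL. Its other group means ran from 13.8 ± 6.01 in YFB_C to 21.0 ± 1.43 in YFB_S (SD, n = 3 each), with 7.09 RPKM in YFB_C replicate 3 and at least 12.2 in every other library. Gene model 51973, also one of the members nearest the threshold, had 8.44, 6.45 and 4.29 RPKM in FB_CL. Elsewhere it ran from 18.3 ± 6.62 in P2 (SD, n = 4) to 38.7 ± 14.03 in YFB_C (SD, n = 3). Its lowest libraries outside FB_CL, both on the second flow cell, were P2 replicate 4 at 8.71 and H replicate 4 at 9.01 RPKM, close to the 8.44 of FB_CL replicate 1.

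**Figure D3:**
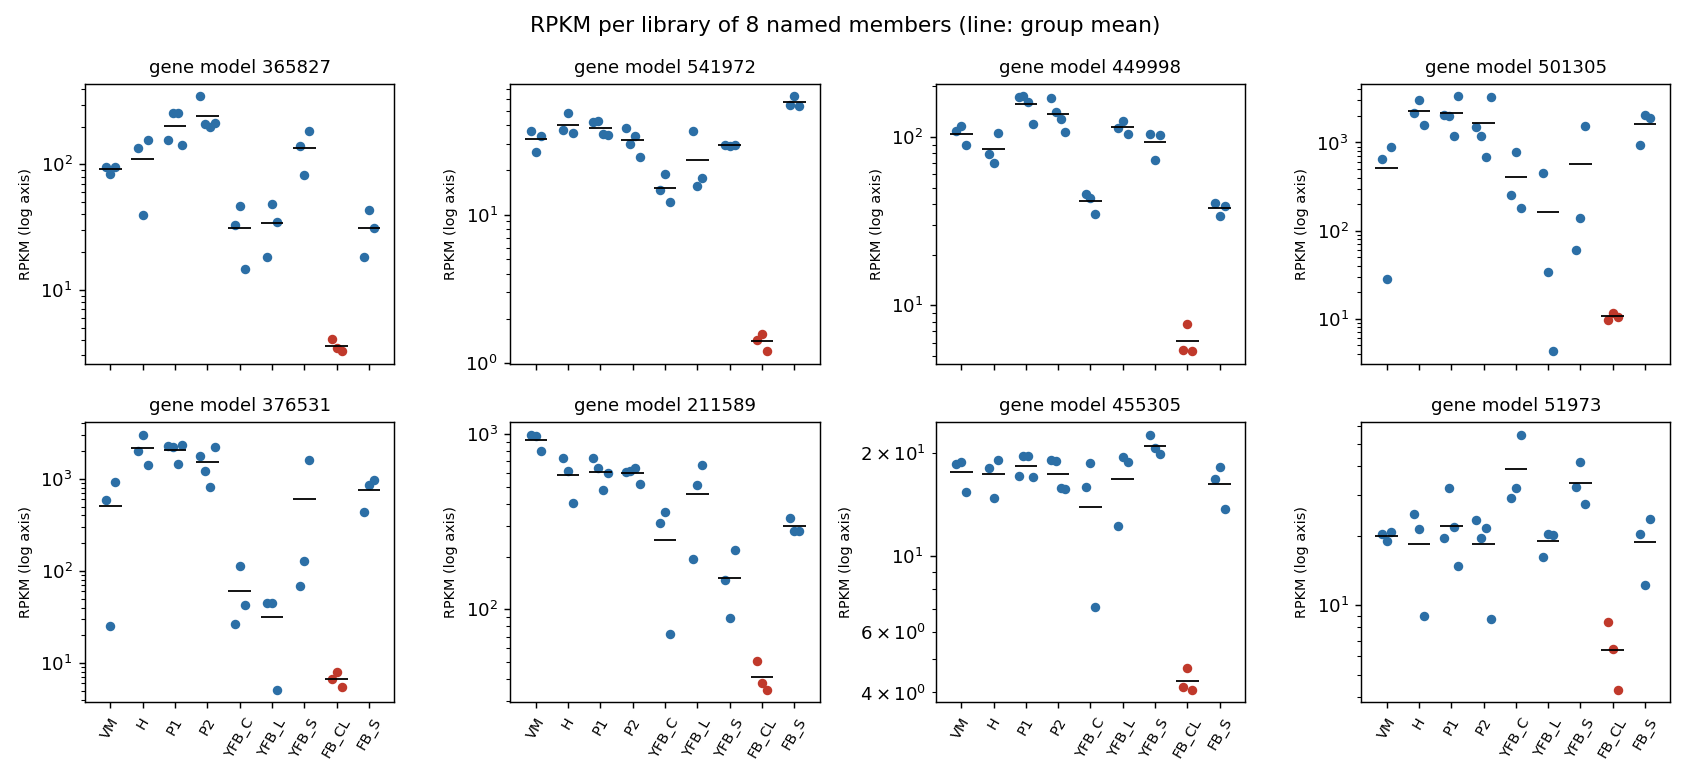
RPKM in each library (log axes, scaled per panel) of the 3 members with the largest gap (365827, 541972, 449998), the 3 most abundant (501305, 376531, 211589) and the 2 flattest (455305, 51973), with FB_CL in red and a line at each group mean. FB_CL is lowest in each panel by its group, and single libraries of YFB_L reach it in 501305 and 376531.

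Outside the mature cap the members typically spanned a narrower range than all gene models. The range between the highest and the lowest of the 8 other group medians had a median of 1.62 over the members and 2.16 over all gene models, on the log2(RPKM + 1) scale. It was under 1 in 10 members (12.2%, against 10.6% of all gene models), between 1 and 2 in 44 (53.7%, against 34.1%) and 2 or more in 28 (34.1%, against 55.4%). An edgeR quasi-likelihood test of any difference among these 8 groups called 31 of 82, or 37.8%, at an adjusted p under 0.05 and at least 4-fold between the extreme groups, where 68.1% of the 11990 gene models tested were called. All 82 members were among those tested. At the adjusted p alone 77 of the 82 passed, 93.9%, near the 95.9% of all gene models. The rule bounds members from below in all 8 groups, which limits how far they can range. With library size alone 62 were called, against a background of 73.9%.

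The 8 members with a range of 4 or more peaked in different places. Of these, 4 were highest in VM (470834, 476376, 477026 and 496868), and 1 each in H (501305), P1 (376531), YFB_C (461499) and YFB_S (464903). Over all 82 members the highest of the other groups was YFB_S in 25, YFB_L in 22 and VM in 15, against 14.5%, 17.3% and 19.4% of all gene models. It was FB_S in 3 (3.66%), against 22.9% of all. Between pairs of members the correlation of the 8 group medians had a median of 0.21, from -0.15 to 0.54 at the quartiles, so most pairs were weakly alike over these groups.

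The members had a median length of 1195 bases against 1315 over all gene models and a range of 192 to 5422. For 73 members all reads were placed on 1 gene model only. Gene model 487787, with 65.7% of its reads placed so, had the rest placed on other gene models as well, and its values are uncertain.

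The other mature tissue, the stipe, can be compared with its young form without using the mature cap. Of the 82 members, 37 (45.1%) were called in FB_S against YFB_S, where 46.6% of all gene models were. Of these 36 fell and 1 rose, that is 43.9% and 1.22%. Of all 11990 gene models 23.5% fell and 23.1% rose, so the share of members that fell was above the background and the share that rose below it. The calls are those of an edgeR quasi-likelihood test with Benjamini-Hochberg adjustment over all gene models, at an adjusted p under 0.05 and at least 2-fold. The median log2 change was -0.88 over the members and -0.01 over all gene models, and 62 of 82 members had a change below 0. A change above 0 was found in 20 of the 82, against 49.5% of all gene models. At 4-fold 9 fell and 0 rose, 11% and 0% of members against 11.7% and 12.0% of all gene models. The higher share of falls was thus found at 2-fold and not at 4-fold, while the share of rises stayed below the background. With library size alone 60 fell (73.2%, against 37.6% of all gene models) and 0 rose (against 13.9%). The members' median then lay 0.85 below that of all gene models (-1.53 against -0.67), as against 0.86 with TMM. A change of scaling shifts both medians nearly alike. The rule bounds both stipe groups from below by the FB_CL level, and no FB_CL level enters the change itself. The FB_CL libraries do share in the estimate of the spread, and with them left out 36 fell and 0 rose, 35 of the 36 called before as well. Leaving out single libraries gave 30 to 39 called, with 27 falls and 3 rises without FB_S replicate 2 and 35 falls and 4 rises without YFB_S replicate 3. No background by direction was computed for these splits, and none is printed for the fit without the FB_CL libraries. These counts are thus not read as a trait of the members.

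Gene model 379742 fell the most on stipe maturation. It had 101, 81.97 and 102 RPKM in the young stipe and 5.57, 6.44 and 6.64 in the mature stipe, a log2 change of -3.94 ± 0.54 (SE; adjusted p = 1.51e-06 by edgeR). It had 1.77, 0.508 and 0.979 RPKM in FB_CL, below the mature stipe. Gene model 464903 went from 434, 496 and 293 to 39.1, 31.6 and 49.4 RPKM (log2 change -3.35 ± 0.55 SE; adjusted p = 1.82e-05 by edgeR), and had 4.91, 4.76 and 4.51 RPKM in FB_CL. Both were highest in the young stipe and lowest in the mature cap. In the mature stipe 379742 was below all other libraries outside FB_CL, whereas 464903, at 40.04 ± 8.94 RPKM there (SD, n = 3), was near its 43.1 ± 8.59 of P2 (SD, n = 4). The member that rose, 470912, went from 15.6, 7.20 and 12.4 to 30.2, 22.1 and 19.4 RPKM (log2 change 1.02 ± 0.40 SE; adjusted p = 0.0320 by edgeR). That call was marginal and was lost without FB_S replicate 1 (0.82, edgeR adjusted p = 0.126), YFB_S replicate 2 (0.76, 0.147) or YFB_S replicate 3 (1.06, 0.0591), and without H replicate 3 its change was 0.97 (0.0467), under 2-fold. It was lost also without the FB_CL libraries (0.98, 0.0524), in a fit to the stipe libraries alone (0.97, 0.0260, under 2-fold) and with library size alone (0.32, 0.535).

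FB_S was the next lowest group in 38 members (46.3%, against 23.0% of all gene models having FB_S as the lowest of the 8), and 24 of these 38 fell, along with 12 of the other 44. That is 63.2% of the 38, where 64% of all gene models lowest in FB_S fell. The stipe level of the 36 that fell still exceeded that of FB_CL by a median of 1.90 on the log2(RPKM + 1) scale, and by 2.11 in the other 46. Of the 25 members highest in YFB_S, 19 fell, 76% against 58.1% of all gene models highest there, and a group chosen as highest is bound to fall more often. In 34 of the 36 the FB_S and YFB_S ranges did not overlap, 94.4% against 95.9% of all gene models that fell. FB_S lay wholly below YFB_S in 32.5% of all gene models, called or not. The rule requires that the stipe stay above the mature cap.

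**Figure D4:**
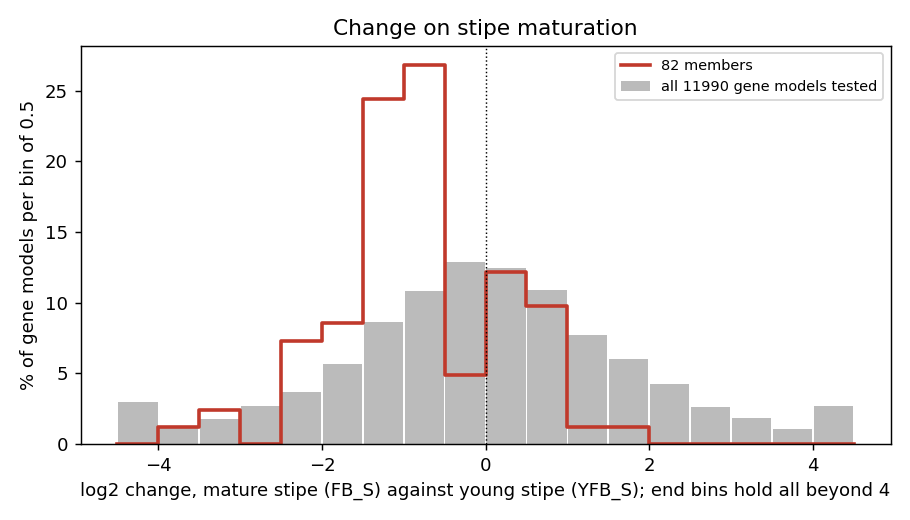
Distribution of the log2 change of FB_S against YFB_S over the 82 members (red outline) and all 11990 gene models tested (grey bars), in bins of 0.5 with the end bins open. The members gather between -1.5 and -0.5, where 24.4% and 26.8% fall in the 2 bins against 8.62% and 10.9% of all, and 2 members lie above 1.

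Against stage 2 primordia, the young cap had 25 called members (30.5%, background 42.7%). Of these, 19 had less and 6 more transcript, 23.2% and 7.32%, where 20.7% of all gene models were lower and 22% higher. The lower calls were thus near the background and the higher calls under it. Primordia were not divided by tissue, so a difference can lie between tissues and not between stages. Gene model 376531 had 1757, 1214, 805 and 2243 RPKM in P2 and 26.4, 112 and 42.4 in the young cap (log2 change -4.64 ± 1.07 SE; adjusted p = 0.000810 by edgeR), and -5.46 without YFB_C replicate 2. Gene model 496868 had 207, 429, 165 and 133 and 11.8, 16.1 and 9.91 RPKM (-4.24 ± 0.89 SE; adjusted p = 0.000356 by edgeR). Both were low in all 3 young cap libraries.

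Gene model 461499 was highest in the young cap, with 17.9, 17.3, 16.1 and 12.6 RPKM in P2 and 321, 433 and 242 in YFB_C (log2 change 4.38 ± 0.29 SE; adjusted p = 1.30e-10 by edgeR). It was at 2.33, 3.81 and 2.03 RPKM in the mature cap, so its highest group was the young cap and its lowest the mature cap with lamellae. Gene model 464903 rose from 54.4, 34.5, 44.5 and 38.96 to 107, 104 and 312 RPKM (2.02 ± 0.47 SE; adjusted p = 0.00101 by edgeR), with YFB_C replicate 3 far above the other 2 libraries, and its change was 1.29 without it. Without that replicate 16 members were called, 7 higher and 9 lower, with no background by direction computed for that split. With library size alone 1 was higher and 55 lower, 1.22% and 67.1% against 8.499% and 43.6% of all gene models. In total 68.3% were called against 52.1%, so that members were then called more often than the background and not less. The median of all gene models moved from 0.00 to -0.89, and both the share called and the split between higher and lower depend on the scaling.

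Young lamellae set against P2 gave 14 called members (17.1%, background 34.5%), 11 reduced and 3 raised, 13.4% and 3.66% against 16% and 18.5% of all gene models. Without YFB_L replicate 1, which stood apart, 9 were raised and 10 reduced, with no background by direction computed for that split. Gene models 376531 and 496868 were again the most reduced, with log2 changes of -5.59 ± 1.12 and -3.85 ± 0.86 (SE; adjusted p = 0.000259 and 0.000785, edgeR). In YFB_L gene model 496868 had 36.8, 9.82 and 2.23 RPKM, and without replicate 1 its change was -5.32. Gene model 381821 rose from 32.9, 10.8, 27.05 and 15.3 RPKM in P2 to 169, 144 and 130.1 in lamellae (2.78 ± 0.51 SE; adjusted p = 0.000103 by edgeR), with 6.75, 4.27 and 4.44 in the mature cap with lamellae. Gene model 461499 rose here as well, to 92.7, 51.04 and 54.4 RPKM (2.05 ± 0.26 SE; adjusted p = 1.23e-06 by edgeR).

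For the young stipe against P2, 20 members were called (24.4%, background 38.9%), 11 raised and 9 reduced, 13.4% and 11% against 17.8% and 21.1% of all gene models. Gene model 381821 rose to 208, 276 and 156 RPKM (log2 change 3.31 ± 0.52 SE; adjusted p = 1.74e-05 by edgeR) and 464903 to 434, 496 and 293 (3.25 ± 0.49 SE; adjusted p = 1.07e-05 by edgeR). Gene model 496868 fell to 12.7, 1.82 and 33.002 RPKM (-3.91 ± 0.87 SE; adjusted p = 0.000700 by edgeR, and -4.99 without YFB_S replicate 3). Gene model 487787, whose values are uncertain, fell from 152, 73.7, 76.1 and 62.3 to 16.2, 8.92 and 18.7 RPKM (-2.64 ± 0.54 SE; adjusted p = 0.000303 by edgeR). With library size alone 6 were higher and 17 lower, 7.32% and 20.7% against 9.64% and 32.1% of all gene models. The median of all gene models moved from 0.00 to -0.50. Over the 3 young tissues with TMM scaling, 43 members were called in none, 52.4% against 31.4% of all gene models. In all 3 tissues 3 fell (477026, 496868 and 470834), 3.66% against 4.69%, and 2 rose (381821 and 461499), 2.44% against 3.91%. With library size alone 56 members were called in YFB_C against P2 (68.3%, against 52.1% of all gene models), so the share called in none depends on the scaling. The rule also bounds members from below in all these groups, which limits how far they can differ. The comparisons of the 3 young tissues share the P2 libraries, so the counts are not independent of each other.

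Young lamellae and young cap, the tissues that the mature cap sample holds together, differed in 26 members (31.7%, background 43.6%), 16 higher and 10 lower in lamellae. These are 19.5% and 12.2%, against 23.7% and 19.9% of all gene models. Leaving out YFB_L replicate 1 made the split 25 higher and 8 lower, and leaving out YFB_C replicate 2 made it 23 higher and 6 lower. No background by direction was computed for these splits, so they are not read as a trait of the members. Gene model 443052 had 4.85, 4.07 and 5.91 RPKM in cap and 27.6, 45.2 and 22.2 in lamellae (log2 change 2.68 ± 0.37 SE; adjusted p = 2.15e-06 by edgeR), and 0.544, 0.926 and 1.4197 in FB_CL. Gene model 482776 had 3.25, 2.73 and 3.30 and 6.63, 22.6 and 24.8 RPKM (2.55 ± 0.33 SE; adjusted p = 9.10e-07 by edgeR). Both were lower in the mature cap with lamellae than in either young tissue, and in both the young cap was the nearer.

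On the cap side, 461499 (log2 change -2.33 ± 0.29 SE; adjusted p = 6.75e-07 by edgeR) and 449714 (-2.05 ± 0.36 SE; adjusted p = 4.16e-05 by edgeR) were lower in lamellae. Gene model 449714 had 31.9, 43.7 and 76.3 RPKM in cap and 5.08, 14.1 and 17.5 in lamellae. Its extremes were YFB_C replicate 3 and YFB_L replicate 1, the libraries of these tissues that stood apart, and without both its change was -1.26, still called. A fit to these 6 libraries alone called 11 members. Library size alone gave 41 higher and 3 lower in lamellae, 50% and 3.66% against 38.5% and 12.1% of all gene models. In total 53.7% were called against 50.6%, with the median of all gene models moved from 0.08 to 0.72.

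**Figure D5:**
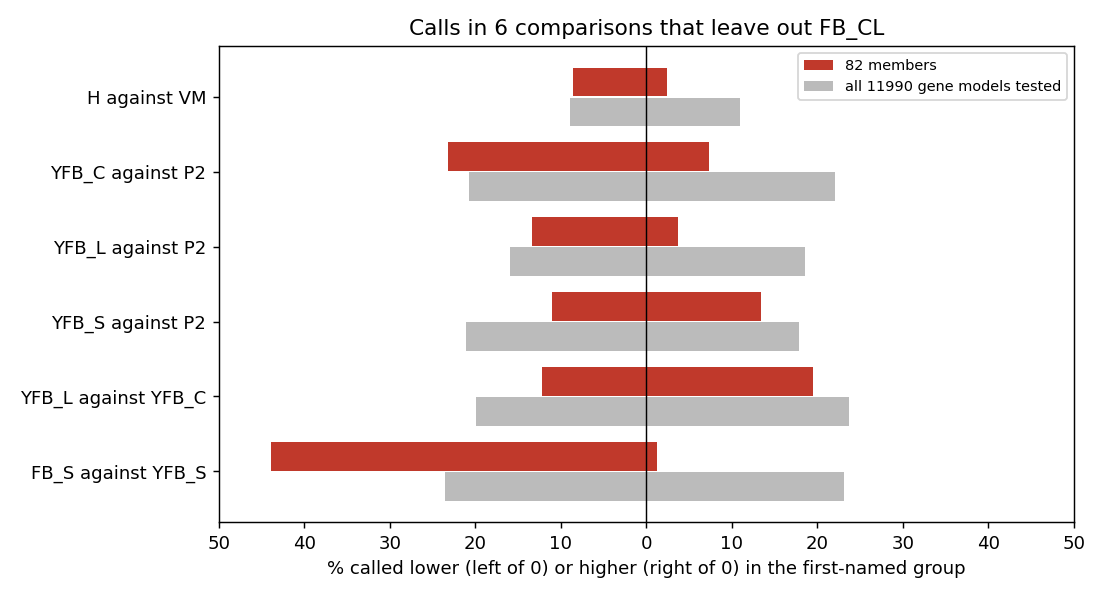
Percent of the 82 members (red) and of all 11990 gene models tested (grey) called lower (left) or higher (right) in the first-named group of 6 comparisons that leave out FB_CL. The members stand out from the grey bars in FB_S against YFB_S, with 43.9% lower and 1.22% higher against 23.5% and 23.1%. At 4-fold, not drawn, 11% were lower there against 11.7%. In total they are called near the background in that comparison (45.1% against 46.6%) and less often in the other 5 with TMM scaling. With library size alone FB_S against YFB_S (73.2% against 51.5%), YFB_C against P2 (68.3% against 52.1%) and YFB_L against YFB_C (53.7% against 50.6%) turn to more often. The rule bounds members from below in all these groups, which limits how far they can differ.

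At the onset of fruiting 9 members were called (11%, background 19.9%). In hyphal knots 7 had less and 2 more transcript than in mycelium, 8.54% and 2.44% against 8.98% and 11% of all gene models. Gene model 443052 fell from 69.3, 50.7 and 70.2 RPKM in VM to 26.3, 25.8 and 21.5 in H (log2 change -1.37 ± 0.35 SE; adjusted p = 0.00561 by edgeR). Gene model 476376 fell from 235, 761 and 226 to 219.6, 13.5 and 51.3 RPKM (-2.11 ± 0.77 SE; adjusted p = 0.0475 by edgeR), and 470912 rose from 20.8, 42.7 and 17.5 to 55.1, 68.04 and 60.5 (1.18 ± 0.39 SE; adjusted p = 0.0307 by edgeR). The replicates of 476376 were far apart in both groups. Its call was lost without VM replicate 2 (-1.28, edgeR adjusted p = 0.275), H replicate 3 (-1.63, 0.164) or H replicate 4 (-1.81, 0.150), and at adjusted p of 0.0501 to 0.0549 without many single libraries of other groups. Its change was -3.65 without H replicate 2. The call of 470912 was lost without VM replicate 1 (1.02, 0.120), VM replicate 3 (0.95, 0.133), H replicate 3 (1.08, 0.103) or H replicate 4 (1.19, 0.0546). The count of 9 was itself unstable, with 5 without any single VM library, 3 without H replicate 3, 5 on the first flow cell alone and 2 in a fit to these 6 libraries.

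Over the 6 comparisons with TMM scaling, 22 members were called in none, 26.8% against 15.03% of all gene models, and 23 in 1, 28.05% against 19.2%. In 7 members 4 or more were called, 8.54% against 22.4% of all gene models. No member was called in all 6, where 1.19% of all gene models were. These shares hold for TMM scaling and were not computed with library size alone. The rule bounds members from below in all 8 groups, which limits how far they can differ. Fewer calls than over all gene models are thus not read as a trait of the members. Gene model 455305 is an example of a nearly even level outside the mature cap, and 461499 in the cap and 464903 in the stipe of a rise in a young tissue.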

How the data were processed

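Transcript levels of 29 libraries were analysed from the deposited files. Reads had been counted per gene model, and the total gene reads used here are raw counts per the file headers. The deposited TPM values of the same files were not used for any result. The deposited expression matrix holds log2 RPKM of 12003 of the 14242 gene models. The submitters' processing notes name edgeR 3.4.2, limma 3.18.13 and R 3.0.2. The deposited scaling matched TMM factors computed here within 0.00239 on the log2 scale. An aligner version and an assembly were not given in the sources used here. Gene length, per the file headers, is that of the gene model in bases. The cDNA synthesis in the labels' protocols names no step that marks the strand, and overlapping genes on opposite strands cannot be told apart. Groups and replicate numbers come from the titles.

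The members were found in the matrix with a pseudocount of 1 RPKM and a threshold of 1.5, and members and lists were chosen with earlier results of these data known. Tests used edgeR 4.0.16 in R 4.3.3 on counts, with filterByExpr (11990 gene models kept, 2252 set aside), TMM and 1 quasi-likelihood fit of all 29 libraries, FB_CL included, with a coefficient per group. Changes were called at an adjusted p under 0.05 and 2-fold (4-fold among the 8 groups). SE is the change divided by the square root of F. The step was checked on simulated data. Named members are, by a set rule, the 3 with the largest gap, the 3 most abundant, the 2 flattest, the 2 on each side of the threshold and, per comparison, up to 2 risers and 2 fallers among those called whose ranges do not overlap in CPM. Others named were chosen after their values were seen. Alternatives were DESeq2 1.42.0, limma 3.58.1 on log2(RPKM + 1), other scalings, filters, thresholds and samples, and leaving out each library.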

Additional observations from a re-analysis of the deposited data

Results flagged for a closer look

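Some members had a library that stood far from the other 3 of its group, by a criterion that chance meets in about 1 of 20 groups of 4, here in 4 of 40. Gene model 365827 had 393 CPM in P2 replicate 1, against 225 to 239 CPM in the other P2 libraries. In the same library gene model 487787 had 227 CPM against 92.7 to 113 CPM, and 443052 had 15.001 CPM against 24.3 to 26.1 CPM. Gene model 376531 had 708 CPM in P1 replicate 3 and 1089 to 1137 CPM in the other P1 libraries. The causes were not tested.

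Gene model 443052 moved in opposite directions in the tissues of the young cap. Against stage 2 primordia its log2 change was -1.49 in the cap and 1.20 in lamellae, both called by edgeR, and the difference between them was 2.68 (lamellae against cap, edgeR adjusted p = 2.15e-06), lower in all 3 cap libraries than in any lamellae library.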

How the results depend on the processing

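The rule found 282 gene models at a threshold of 1, 16 at 2, 184 with a pseudocount of 0.1 and 368 with library size alone, against 82, and 71 to 88 with a library left out. By group mean it found 74, of which 62 were among the 82. Members called with library size alone numbered 5 for H against VM, 56 for YFB_C against P2, 44 for YFB_L against YFB_C, 60 for FB_S against YFB_S and 62 among the 8 groups, against 9, 25, 26, 37 and 31. At 4-fold they numbered 2, 7, 5 and 9 for these 4 comparisons and 7 for YFB_S against P2 (20 at 2-fold), and 70 among the 8 groups at 2-fold (background 92.6%). The backgrounds at 4-fold were 8.81%, 18.4%, 23.0% and 23.6% for the 4 and 15.7% for YFB_S against P2. The groups compared alone gave 2 for H against VM and 11 for YFB_L against YFB_C, and the first flow cell alone 5 for H against VM. With YFB_C replicate 3 and YFB_L replicate 1 both left out, chosen after the data were seen, 16 were called for YFB_C against P2. With 1 library left out the counts ran from 3 to 10 for H against VM, 16 to 30 for YFB_C against P2, 13 to 19 for YFB_L against P2, 17 to 25 for YFB_S against P2, 21 to 33 for YFB_L against YFB_C, 30 to 39 for FB_S against YFB_S and 29 to 33 among the 8 groups. DESeq2, RLE factors, limma, both other filters, the flow cell as a covariate and leaving out the FB_CL libraries moved none of these counts by over 1.5 times. The labels do not say whether replicate numbers pair the samples. Same-numbered libraries of the groups compared deviated together at correlations from -0.47 to 0.34, and 2 or 3 such pairs per comparison are too few to settle it. With the replicate number as a block the counts were 7, 25, 14, 21, 25 and 37 for the 6 comparisons in that order and 30 among the 8 groups. Leaving out libraries can also move the share of all gene models called. Counts printed without a background are thus not read as a trait of the members. For each count that moved, the cause was not tested. Of 924 repeats of the changes of named members, 44 lost their call and 0 reversed. Many of these repeats left out a library of a group outside the comparison, which moves the change little. The pooled count thus says little of how firm each call is. Reads of 1 to 9 in an FB_CL library limit the level of 13 members.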
